A study of Mus musculus with 16 samples.

Results

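The experiment described here is the total RNA trend over 4 valine doses in mouse T cell acute lymphoblastic leukaemia (T-ALL), a cancer of immature T cells. It comprises 8 libraries of the 16 in the series, all those made from total RNA, with the other 8 made from ribosome-protected fragments (RPF), which are mRNA pieces that a ribosome covered. Leukaemic cells came from C57BL/6 mice that carried secondary transplants of NOTCH-ΔE T-ALL, driven by a truncated, constantly active Notch receptor, and GFP-positive cells were sorted from spleen. All mice had the same leukaemia model and 3 weeks on a diet. By the sample characteristics the groups differed in dietary valine: 0, 0.4, 0.8 or 8 g/kg, with 8 g/kg the control diet. Each dose had 2 libraries, labelled T-ALL 2 and T-ALL 3, and values are given in that order at every dose. The labels do not say whether these numbers are separate tumours, separate animals or both, so p-values here rest on a spread between samples that may be technical. Doses follow the sample characteristics, in g per kg of diet, although the treatment text gives the intermediate amounts as drinking water. The intermediate doses may therefore differ from the others in route as well.

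The question was which mRNAs follow the valine supply step by step and which differ only when valine is absent. Levels are FPKM, which divide reads by gene length and library depth. Of 12012 genes in the table, 7515 had a mean of at least 5 FPKM over the 8 libraries and were tested, and 4497 were not. Cables2, with a mean of 5.007 FPKM, was just inside this limit and Acvr2b, with 4.999 FPKM, just outside. A gene low at some doses can pass this limit through the doses where it is high. For each gene a slope was fitted to log2(FPKM + 0.5) over the dose ranks 1 to 4, so that a negative slope means a higher level with less valine, in log2 units per step of dose. The ranks are evenly spaced while the doses are not. A separate fit with diet as a factor gave the difference of 0 g/kg from the mean of the 3 diets with valine, and the slope over those 3 diets alone. Standard errors (SE) come from limma's moderated variance over all 8 libraries.

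Valine is an essential branched-chain amino acid that animals must take from food. When an amino acid runs short, its uncharged tRNA activates the kinase GCN2, which slows translation of most mRNAs and favours that of ATF4, a transcription factor that switches on genes for amino acid synthesis, amino acid uptake and tRNA charging. Cells short of amino acids also lower mTORC1 signalling, on which ribosome production and cell growth depend. Replication-dependent histone mRNAs are made in S phase, when DNA is copied, and mitotic mRNAs such as those of the B-type cyclins accumulate in G2 and M phase. In NOTCH-driven T-ALL, MYC is a well-known target of the Notch receptor and drives growth. All libraries are of bulk sorted cells, in which fewer cells of a type and less RNA per cell cannot be told apart.

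Reads recovered from the FPKM values numbered 704777 and 428278 at 0 g/kg, 1082650 and 746936 at 0.4 g/kg, 916047 and 364685 at 0.8 g/kg and 1269364 and 846162 at 8 g/kg. Under each T-ALL number the 0 g/kg library was thus shallower than the 8 g/kg library. T cell markers, 13 of 13 of them tested, took 48.4 to 60.5 of every 10000 reads in all 8 libraries. Their summed share was 52.1 and 54.9 at 0 g/kg, 51.3 and 51.3 at 0.4 g/kg, 48.4 and 60.5 at 0.8 g/kg and 50.7 and 59.7 at 8 g/kg, and the groups overlapped. The labelled T cell identity was therefore present on every diet, although the coreceptor gene Cd8a was at 8.39 and 8.48 FPKM at 0 g/kg and at 0.972 to 14.4 FPKM on the other diets. Near-identical copies (Hspa1a with Hspa1b, and many histone, globin and ribosomal protein genes) may share reads, so that single members of these families are uncertain.

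No gene passed the trend test at an adjusted p under 0.05 (0% of 7515 genes), and the lowest adjusted p in limma was 0.0769, for Hspa1l. Without adjustment 548 genes had p under 0.05, of which 314 (4.18%) had a slope above 0, lower with less valine, and 234 (3.11%) a slope below 0. Over all genes 54.7% of slopes were above 0 and 45.3% below, and 54.2% of genes were lower and 45.8% higher at 0 g/kg than on average in the other diets. Limma voom on the recovered reads called 18 genes for the trend. A slope above 0 passed for Rbm3, B4galt1, Myc and Dennd4a, and one below 0 for 14 genes (Hspa1a, Hspa1b, Hspa1l, Ppp1r15a, S100a8, S100a9, Ngp, Mthfd2, Asns, Shmt2, mt-Nd4, Polq, Atad2 and Jun). In the difference of 0 g/kg from the other diets, 1 gene passed, the histone gene Hist2h2aa1 (0.0133% of genes tested), and 617 had an unadjusted p under 0.05, 204 higher (2.71%) and 413 lower (5.5%) at 0 g/kg. Voom called 20 genes there, 14 higher and 6 lower. With all libraries thinned to the depth of the shallowest, the trend test called 1 gene, S100a8, and the 0 g/kg difference 6. Over the 3 diets that held valine no gene passed (0%), with 249 at an unadjusted p under 0.05, of which 122 (1.62%) had a slope above 0 and 127 (1.69%) below 0, and voom called 0. An adjusted p given below is that of limma on log2 FPKM, which only Hist2h2aa1 passed, and for named genes that voom called the adjusted p of voom is given as well.

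The 4 dose means were in strict order for 332 genes higher with less valine (4.42%) and for 489 genes lower with less valine (6.51%). Both 0 g/kg libraries lay above the other 6 for 333 genes (4.43%) and below them for 476 genes (6.33%). A pattern was assigned, as a description, to the 247 genes with an unadjusted p under 0.01 in the trend or in the 0 g/kg difference. Among them 67 were graded, meaning that the dose means were in order and had a squared correlation with the ranks of at least 0.8 that no step exceeded: 34 were higher with less valine (0.452%) and 33 lower (0.439%). A further 107 differed by a step at 0 g/kg, with both 0 g/kg libraries outside the range of the other 6: 22 were higher at 0 g/kg (0.293%) and 85 lower (1.13%). Another 10 stood apart at 8 g/kg, and 63 had none of these shapes. Graded genes were thus nearly even in direction, whereas most of the step genes were lower without valine, and 38 of those 85 were histone genes.

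Hspa1a and Hspa1b, the inducible members of the HSP70 family of chaperones that refold damaged proteins, were among the 5 steepest slopes. The steepest was that of the neutrophil gene Ngp, at -1.92 ± 0.44. Ngp rested on few reads in the libraries with valine, and the part of the filter in its slope was not tested. Hspa1a (chr17:34969359-34972156) had 140 and 214.5 FPKM at 0 g/kg, 59.9 and 111.5 at 0.4 g/kg, 15.96 and 3.08 at 0.8 g/kg and 11.8 and 4.37 at 8 g/kg. Every library at 0 and 0.4 g/kg lay above every library at 0.8 and 8 g/kg, while the means of the upper pair of doses were close, so the gene was not assigned the graded shape. Its slope was -1.69 ± 0.28 log2 per dose rank (adjusted p = 0.196 in limma and 0.00161 in voom). Hspa1l, its neighbour, best known from testis, had 28.1 and 42.9 FPKM at 0 g/kg, 7.44 and 26.1 at 0.4 g/kg, 3.83 and 4.92 at 0.8 g/kg and 2.48 and 0.524 at 8 g/kg, with a slope of -1.46 ± 0.19 (adjusted p = 0.0769, voom 0.023). The copy Hspa1b had 14.3 and 14.6 FPKM at 0 g/kg, 4.01 and 6.27 at 0.4 g/kg, 1.69 and 0 at 0.8 g/kg and 0 and 0 at 8 g/kg, with read counts of 26 and 17 at 0 g/kg, 11 and 12 at 0.4 g/kg, 4 and 0 at 0.8 g/kg and 0 and 0 at 8 g/kg. Its slope had an adjusted p of 0.196 in limma and 0.00698 in voom. Hspa1b averaged under 5 FPKM over the libraries with valine, so it passed the filter only through the 0 g/kg libraries, where it was high. No reads were seen at 8 g/kg, so the mean at 0 g/kg was at least 25.8-fold higher, taking 0 as up to 3 reads over both libraries. The 3 genes lie side by side in the major histocompatibility region of chromosome 17, and how their reads were shared was not tested.

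The proximal promoters of Hspa1a and Hspa1b are shown because heat shock factor acts through a short inverted repeat of GAA. The 300 bases run from 250 before to 50 after the RefSeq start (GRCm38.p6), at chr17:34972107-34972406 and chr17:34959189-34959488, both on the minus strand. They differed at 4 of 300 bases. The transcripts were not compared, so this does not show how far reads of the pair can be told apart. The capitals mark matches to GAANNTTC, which reads the same on both strands, and each promoter held 1, starting at -104.
Hspa1a: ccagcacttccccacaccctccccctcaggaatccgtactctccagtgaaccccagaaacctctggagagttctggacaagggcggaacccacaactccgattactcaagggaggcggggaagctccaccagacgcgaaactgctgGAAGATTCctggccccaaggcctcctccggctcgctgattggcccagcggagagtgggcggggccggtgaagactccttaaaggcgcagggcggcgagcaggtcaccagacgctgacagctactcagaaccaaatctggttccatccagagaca
Hspa1b: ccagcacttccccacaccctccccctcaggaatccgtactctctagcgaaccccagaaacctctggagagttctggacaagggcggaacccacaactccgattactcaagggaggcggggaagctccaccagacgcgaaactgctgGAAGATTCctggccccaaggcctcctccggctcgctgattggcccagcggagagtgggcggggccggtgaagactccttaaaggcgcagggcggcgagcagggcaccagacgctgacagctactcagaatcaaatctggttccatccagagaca
Among all 32851 RefSeq promoters 7.86% held GAANNTTC, and of the 6076 tested genes with a promoter there 7.08% did. In the heat shock list it was present in 9 of 15 promoters (60%). A match of letters is a description of this window and not a binding site.

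Among the other 16 tested members of the heat shock list 12 had a slope below 0 and 4 above, against 45.3% and 54.7% of all genes, and 1, Hsph1, had an unadjusted p under 0.05, against 3.11% of all genes below 0. The median slope of the whole list of 19 was -0.04, against 0.01 for all genes tested. Hspa8, the constitutive HSP70, had 1323 and 1147 FPKM at 0 g/kg, 1132 and 1215 at 0.4 g/kg, 1147 and 1130 at 0.8 g/kg and 1145 and 1062 at 8 g/kg, which overlapped between doses, and a slope of -0.05 ± 0.03. Hsph1, a nucleotide exchange factor of HSP70, had 21.7 and 16.2 FPKM at 0 g/kg, 19.1 and 26.1 at 0.4 g/kg, 19.9 and 15.3 at 0.8 g/kg and 14.7 and 9.52 at 8 g/kg, lowest at 8 g/kg, with a slope of -0.23 ± 0.10. In the endoplasmic reticulum stress list 16 of 20 tested members had slopes below 0, against 45.3% of all genes, and 3 of them (Creld2, Pdia6 and Pdia4) an unadjusted p under 0.05, against 3.11%. Hspa5, the main chaperone of the endoplasmic reticulum, had 154 and 200.2 FPKM at 0 g/kg, 145.5 and 159 at 0.4 g/kg, 135 and 153 at 0.8 g/kg and 145.5 and 132 at 8 g/kg and a slope of -0.11 ± 0.05.

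**Figure D1:**
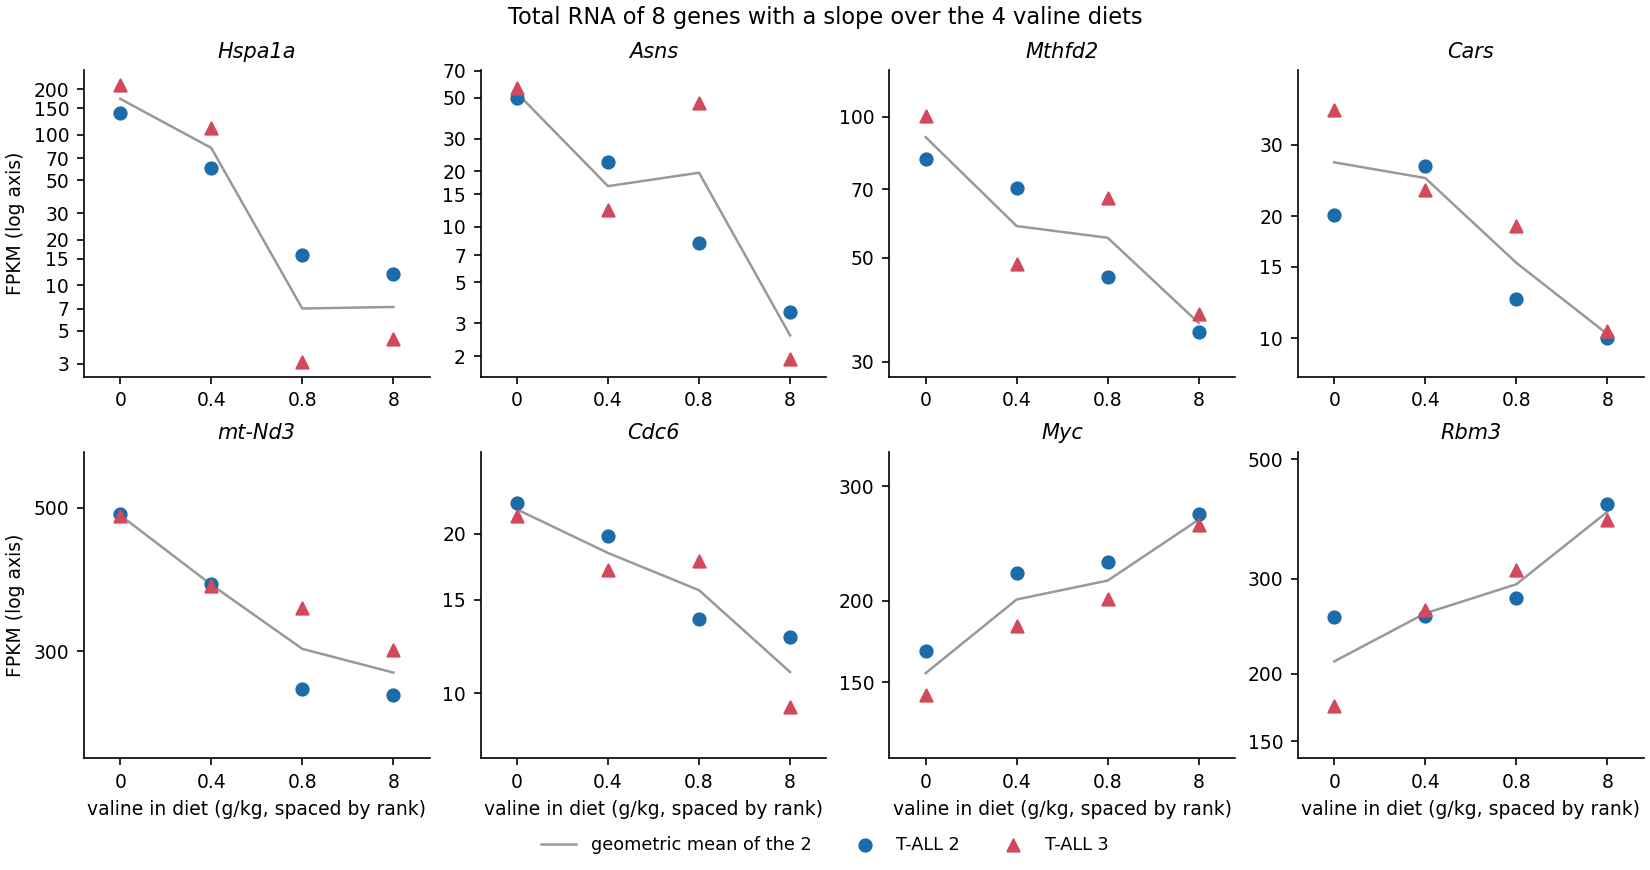
Total RNA level (FPKM, log axis) of 8 genes against the 4 valine diets, spaced by rank. Circles are T-ALL 2, triangles T-ALL 3 and lines the geometric mean of the 2. Hspa1a and Asns have the steepest slopes of the 8, and Asns in the T-ALL 3 library at 0.8 g/kg stands at 46.8 FPKM, against 8.22 in T-ALL 2.

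Of 34 members of the ATF4 list of the amino acid response 21 were tested, and 19 of these had a slope below 0, against 45.3% of all genes, and 2 above. An unadjusted p under 0.05 was reached by 13 members, all higher with less valine, against 3.11% of all genes in that direction. The dose means of 7 members were in order, against 4.42% of all genes, and 2 were graded, against 0.452%. The list's median slope was -0.21 per rank and its median slope over the 3 diets with valine alone was -0.22, against 0.01 and -0.000271 for all genes tested.

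Asns (chr6:7675165-7693209), asparagine synthetase, a textbook ATF4 target, had 49.8 and 56.2 FPKM at 0 g/kg, 22.3 and 12.3 at 0.4 g/kg, 8.22 and 46.8 at 0.8 g/kg and 3.47 and 1.93 at 8 g/kg. Both 0 g/kg libraries were above the other 6, but the T-ALL 3 library at 0.8 g/kg was close to them, and the means were not in order. The slope was -1.21 ± 0.25 (adjusted p = 0.3, voom 0.0269), and the mean at 0 g/kg was 19.6 times that at 8 g/kg. The transcription factor gene Atf5 (chr7:44812256-44816658), itself controlled like Atf4, had 34.9 and 45.1 FPKM at 0 g/kg, 26.4 and 20.97 at 0.4 g/kg, 11.7 and 48.6 at 0.8 g/kg and 7.22 and 11.4 at 8 g/kg, again with a high T-ALL 3 library at 0.8 g/kg, and a slope of -0.62 ± 0.18. The translation repressor gene Eif4ebp1 showed the same library as its highest, at 21.3 FPKM, against 0.876 to 11.6 FPKM elsewhere. Without that library 5 genes passed the trend test: Asns, Atf5, Hspa1a, Hspa1b and Hspa1l.

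Enzymes of serine and folate metabolism on the list differed in shape. Mthfd2 (chr6:83305704-83326011), an enzyme of mitochondrial folate metabolism, had 81.5 and 101 FPKM at 0 g/kg, 70.5 and 48.5 at 0.4 g/kg, 45.4 and 67.1 at 0.8 g/kg and 34.8 and 37.9 at 8 g/kg, and its slope of -0.40 ± 0.08 (adjusted p = 0.251, voom 0.0269) came with dose means in order and both 0 g/kg libraries above the rest. Shmt2, which feeds this pathway from serine, had 219.7 and 196 FPKM at 0 g/kg, 226 and 203 at 0.4 g/kg, 146 and 207 at 0.8 g/kg and 131 and 116 at 8 g/kg and stood apart at 8 g/kg, where both libraries were the lowest (slope -0.25 ± 0.07, adjusted p 0.465, voom 0.0418). Psat1, of serine synthesis, had 124 and 114 FPKM at 0 g/kg, 119 and 115 at 0.4 g/kg, 102 and 146 at 0.8 g/kg and 82.2 and 63.4 at 8 g/kg, likewise lowest at 8 g/kg. Phgdh, the entry enzyme of that pathway, ranged only from 313 to 411 FPKM, with a slope of -0.07 ± 0.04.

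Pck2, the mitochondrial phosphoenolpyruvate carboxykinase, had 29.98 and 24.8 FPKM at 0 g/kg, 11.7 and 15.1 at 0.4 g/kg, 18.4 and 16.99 at 0.8 g/kg and 5.92 and 8.76 at 8 g/kg and a slope of -0.51 ± 0.12. Its 0 g/kg libraries were the highest and its 8 g/kg libraries the lowest, with 0.4 and 0.8 g/kg out of order between them, and voom called its 0 g/kg difference (adjusted p = 0.0334). Atf4 itself had 68.1 and 126 FPKM at 0 g/kg, 63.4 and 94.3 at 0.4 g/kg, 52.9 and 91.7 at 0.8 g/kg and 54.3 and 60.1 at 8 g/kg. The T-ALL 3 library was the higher at each dose, the dose means were in order and the slope was -0.22 ± 0.10 (unadjusted p = 0.049). The pro-apoptotic factor gene Ddit3, known as CHOP, had 11.2 and 22.4 FPKM at 0 g/kg, 7.38 and 9.07 at 0.4 g/kg, 6.11 and 0 at 0.8 g/kg and 7.22 and 10.7 at 8 g/kg, above the rest at 0 g/kg but with no order among the other diets, and a slope of -0.47 ± 0.40. Trib3, Chac1, Sesn2 and Slc7a11, further ATF4 targets, were below the level for testing.

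The cytosolic aminoacyl-tRNA synthetases, which load amino acids onto tRNA, differed in slope. Of 20 tested, 13 had a slope below 0, against 45.3% of all genes, and 7 above. An unadjusted p under 0.05 was reached by 7, all higher with less valine (Cars, Sars, Aars, Yars, Nars, Mars and Gars), against 3.11% of all genes, and 3 were graded, against 0.452%. Cars (chr7:143557230-143600090), for cysteine, had 20.1 and 36.7 FPKM at 0 g/kg, 26.6 and 23.2 at 0.4 g/kg, 12.5 and 18.9 at 0.8 g/kg and 10.04 and 10.4 at 8 g/kg and the steepest slope of the family, -0.48 ± 0.10 (adjusted p = 0.293). Aars, for alanine, had 40.8 and 44.9 FPKM at 0 g/kg, 43.7 and 32.3 at 0.4 g/kg, 26.4 and 41.8 at 0.8 g/kg and 27.7 and 20.3 at 8 g/kg and a slope of -0.27 ± 0.08. Yars, for tyrosine, had 40.9 and 45.6 FPKM at 0 g/kg, 40.4 and 33.7 at 0.4 g/kg, 27.3 and 44.95 at 0.8 g/kg and 22.6 and 25.8 at 8 g/kg and a slope of -0.26 ± 0.08. In both Aars and Yars the T-ALL 3 library at 0.8 g/kg reached the 0 g/kg range.

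Vars, the synthetase that charges valine itself, had 183 and 169.6 FPKM at 0 g/kg, 173 and 171 at 0.4 g/kg, 178 and 159 at 0.8 g/kg and 175 and 159.7 at 8 g/kg. These groups overlapped throughout, and the slope was -0.03 ± 0.04. The leucine enzyme gene Lars spanned 38.4 to 49.3 FPKM with a slope of -0.01. Iars, for isoleucine and named after its values were seen, had 47.8 and 49.6 FPKM at 0 g/kg, 62.1 and 58.6 at 0.4 g/kg, 43.1 and 55.6 at 0.8 g/kg and 38.7 and 33.95 at 8 g/kg. It was highest at 0.4 g/kg and lowest at 8 g/kg, with a slope over the 3 diets with valine of -0.36 ± 0.10. The synthetases of the branched-chain amino acids thus did not share a shape.

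Promoters of Asns, Aars and Yars are shown because the genes' values lean the same way and ATF4 pairs with C/EBP proteins on a composite element of the form TGATGNAA. They lie at chr6:7693160-7693459 on the minus strand, chr8:111033592-111033891 on the plus strand and chr4:129189653-129189952 on the plus strand (RefSeq, GRCm38.p6, same window). Capitals mark matches to TGATGNAA on either strand. Asns held 1 match, starting at -23, Aars 2, at -112 and at 10, both on the opposite strand, and Yars 1, at 4.
Asns: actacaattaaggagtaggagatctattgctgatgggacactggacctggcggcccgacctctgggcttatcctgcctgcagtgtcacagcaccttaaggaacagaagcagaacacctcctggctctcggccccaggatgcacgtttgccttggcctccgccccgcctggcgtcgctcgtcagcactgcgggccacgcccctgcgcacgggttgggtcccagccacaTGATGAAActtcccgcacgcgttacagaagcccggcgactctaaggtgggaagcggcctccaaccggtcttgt
Aars: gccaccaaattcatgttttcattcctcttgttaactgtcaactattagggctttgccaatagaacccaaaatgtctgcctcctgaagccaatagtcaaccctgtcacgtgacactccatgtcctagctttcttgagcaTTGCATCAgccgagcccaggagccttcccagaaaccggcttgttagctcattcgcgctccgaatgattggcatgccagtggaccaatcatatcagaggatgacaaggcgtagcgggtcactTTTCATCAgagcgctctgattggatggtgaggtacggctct
Yars: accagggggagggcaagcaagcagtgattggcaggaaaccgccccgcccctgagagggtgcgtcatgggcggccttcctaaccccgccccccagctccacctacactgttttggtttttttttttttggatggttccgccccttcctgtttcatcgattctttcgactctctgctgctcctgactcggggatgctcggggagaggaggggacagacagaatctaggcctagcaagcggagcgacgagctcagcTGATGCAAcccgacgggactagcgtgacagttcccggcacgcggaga
The motif was in 3.97% of all promoters and in 2.42% of those of tested genes. It was in 5 of the 13 synthetase promoters in the table (38.5%): Aars, Gars, Iars, Tars and Yars. Among these 5 genes, the slopes ranged from -0.27 for Aars to 0.03 for Tars. Of 18 promoters of the ATF4 list 2 held it, those of Asns and Pck2.

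Amino acid transporters had no common direction. Of 9 tested 4 had slopes below 0 and 5 above, near the 45.3% and 54.7% of all genes. An unadjusted p under 0.05 was reached by 2 below 0, against 3.11% of all genes, and by 2 above, against 4.18%. Slc1a5, a glutamine and neutral amino acid carrier, was graded, with 81.97 and 106 FPKM at 0 g/kg, 83.3 and 79.3 at 0.4 g/kg, 69.6 and 61.8 at 0.8 g/kg and 66.4 and 63.7 at 8 g/kg and a slope of -0.19 ± 0.05. Slc3a2, the heavy chain of the leucine and valine carrier, had a slope of -0.14 ± 0.06, and its light chain gene Slc7a5 one of -0.13 ± 0.09. Slc7a6, an exchanger of cationic and neutral amino acids, went the other way, with 11.2 and 12.3 FPKM at 0 g/kg, 13.1 and 14.1 at 0.4 g/kg, 19.04 and 17.9 at 0.8 g/kg and 16.9 and 18.4 at 8 g/kg. So did the taurine carrier gene Slc6a6, at 5.99 and 5.07 FPKM at 0 g/kg, 4.79 and 7.34 at 0.4 g/kg, 5.55 and 7.37 at 0.8 g/kg and 11.03 and 11.9 at 8 g/kg, with both 8 g/kg libraries the highest. Of 19 tested genes of branched-chain amino acid breakdown 7 had slopes below 0 and 12 above, near the 45.3% and 54.7% of all genes. An unadjusted p under 0.05 was reached by 0, against 3.11% of all genes below 0 and 4.18% above. Bcat2, the mitochondrial branched-chain aminotransferase, had a slope of -0.14 ± 0.09.

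Of the 13 mRNAs encoded by mitochondrial DNA 10 had slopes below 0, against 45.3% of all genes, and 3 above, and 4 reached an unadjusted p under 0.05, all higher with less valine, against 3.11%. Their median slope was -0.067, and it was -0.0144 without T-ALL 2 at 0 g/kg. These 4 encode subunits of complex I, the NADH dehydrogenase. mt-Nd3 had 488 and 485 FPKM at 0 g/kg, 382 and 379 at 0.4 g/kg, 262 and 349.5 at 0.8 g/kg and 256 and 301.5 at 8 g/kg, with a slope of -0.27 ± 0.05 (adjusted p = 0.196). mt-Nd4l had 1222 and 1404 FPKM at 0 g/kg, 1090 and 1021 at 0.4 g/kg, 917 and 1096 at 0.8 g/kg and 833 and 829 at 8 g/kg and a slope of -0.20 ± 0.04. mt-Nd4, from the same bicistronic transcript, had 1830 and 1655 FPKM at 0 g/kg, 1620 and 1539 at 0.4 g/kg, 1353 and 1545 at 0.8 g/kg and 1370 and 1296 at 8 g/kg and a slope of -0.13 ± 0.03 (voom adjusted p = 0.0269). In all 3 the dose means were in order and both 0 g/kg libraries were highest, whereas mt-Nd5, with a slope of -0.16 ± 0.06, overlapped between doses.

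The other mitochondrially encoded mRNAs had shallow slopes. mt-Nd1, a further complex I subunit, had 3045 and 2025 FPKM at 0 g/kg, 2765 and 2536 at 0.4 g/kg, 2471 and 2717 at 0.8 g/kg and 3290 and 2929 at 8 g/kg and a slope of 0.09 ± 0.05. mt-Co1, mt-Co2 and mt-Co3, the catalytic core of cytochrome oxidase, had slopes of 0.02, -0.01 and 0.07. The 13 transcripts come from 2 strands of 1 circular molecule and are not independent of each other.

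Among 36 tested nuclear genes for complex I subunits 8 had slopes below 0 and 28 above, against 45.3% and 54.7% of all genes, and 1, Ndufa2, reached an unadjusted p under 0.05, lower with less valine, against 4.18% of all genes. The list's median difference at 0 g/kg was -0.17, against -0.03 for all genes tested, and its median slope over the diets with valine was -0.01. Ndufb3, an accessory subunit named after its values were seen, had 50.6 and 47.4 FPKM at 0 g/kg, 96.4 and 86.4 at 0.4 g/kg, 69.8 and 95.7 at 0.8 g/kg and 63.05 and 84.9 at 8 g/kg, with both 0 g/kg libraries the lowest and a difference of -0.73 ± 0.18. Ndufs1, the largest of the core subunits, had 44.7 and 27.2 FPKM at 0 g/kg, 36.5 and 43.5 at 0.4 g/kg, 37.8 and 46.9 at 0.8 g/kg and 38.8 and 36.99 at 8 g/kg, with a slope of 0.04 ± 0.08.

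Among 20 nuclear subunits of complexes III and IV 17 had slopes above 0, against 54.7% of all genes, and 7 of them an unadjusted p under 0.05, lower with less valine, against 4.18%. Uqcr10, a small subunit of complex III, was graded, with 130.2 and 94.5 FPKM at 0 g/kg, 124 and 126 at 0.4 g/kg, 137 and 167 at 0.8 g/kg and 161 and 160 at 8 g/kg and a slope of 0.19 ± 0.05. Cox7b, of cytochrome oxidase, had 60.2 and 65.02 FPKM at 0 g/kg, 89.8 and 86.3 at 0.4 g/kg, 85.1 and 109 at 0.8 g/kg and 96.1 and 98.3 at 8 g/kg, which made it a step at 0 g/kg of -0.58 ± 0.14. Coa3, an assembly factor of cytochrome oxidase and named after its values were seen, had 3.49 and 8.16 FPKM at 0 g/kg, 13.8 and 14.9 at 0.4 g/kg, 13.4 and 10.3 at 0.8 g/kg and 18.8 and 23.4 at 8 g/kg. For ATP synthase 12 of 15 slopes were above 0, against 54.7% of all genes, 4 of them with an unadjusted p under 0.05, against 4.18%. Of every 10000 reads the complex III and IV list took 26.2 and 24.5 at 0 g/kg and 25.9 to 29.3 on the other diets. The ATP synthase list took 53.6 and 47.2, against 52.3 to 58.4, so that 0 g/kg overlapped the other diets in both. How far these directions depend on the scaling was not tested.

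**Figure D2:**
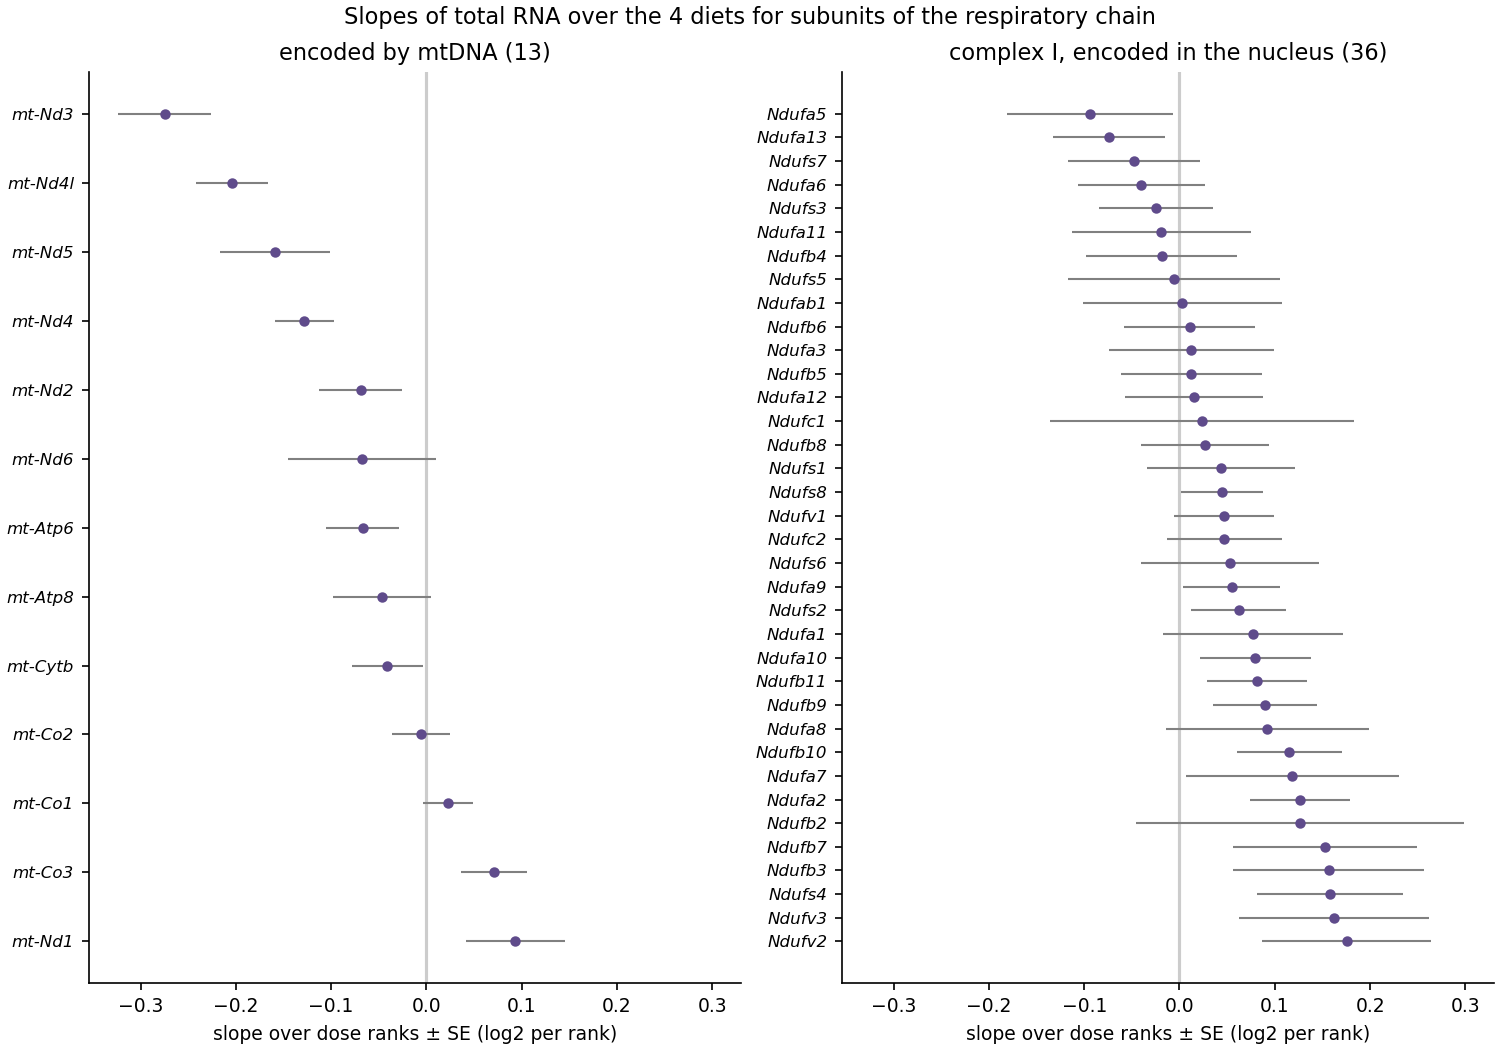
Slope over dose ranks (log2 per rank, points) with its SE (bars). Left are the 13 mitochondrially encoded mRNAs and right the 36 tested nuclear genes for complex I subunits. mt-Nd3, mt-Nd4l and mt-Nd4 lie at -0.27, -0.20 and -0.13, while 28 of the 36 nuclear genes lie above 0.

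Of 38 tested genes of DNA replication 33 had slopes below 0, against 45.3% of all genes, and 5 above. An unadjusted p under 0.05 was reached by 7, all higher with less valine, against 3.11% of all genes, and 36 were higher at 0 g/kg than on average in the other diets, against 45.8%. The median slope was -0.07 and the median difference at 0 g/kg 0.21. When each library was left out, that median slope ran from -0.0961 to -0.044. Cdc6 (chr11:98907709-98923942), which loads the replicative helicase onto origins, was graded at 22.8 and 21.6 FPKM at 0 g/kg, 19.8 and 17.1 at 0.4 g/kg, 13.8 and 17.7 at 0.8 g/kg and 12.8 and 9.44 at 8 g/kg, with both 0 g/kg libraries highest and a slope of -0.32 ± 0.07 (adjusted p = 0.415). Slbp, which binds the stem-loop at the end of histone mRNAs and is needed for their processing, had 58.7 and 64.3 FPKM at 0 g/kg, 62.6 and 48.6 at 0.4 g/kg, 43.8 and 35.4 at 0.8 g/kg and 37.4 and 42.5 at 8 g/kg and a slope of -0.23 ± 0.07.

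Some graded genes outside the lists, Atad2, Hells and Polq, were named after their values were seen, so that their direction was part of the choice. Atad2, a chromatin-bound ATPase, had 66.8 and 66.2 FPKM at 0 g/kg, 55.5 and 56.4 at 0.4 g/kg, 37.5 and 49.8 at 0.8 g/kg and 42.02 and 38.5 at 8 g/kg and a slope of -0.25 ± 0.06 (voom adjusted p = 0.0269). Hells, a chromatin remodeller needed for DNA methylation, had 27.9 and 23.8 FPKM at 0 g/kg, 20.4 and 19.2 at 0.4 g/kg, 16.9 and 20.2 at 0.8 g/kg and 16.8 and 15.2 at 8 g/kg. Polq, the polymerase of microhomology end joining, had 8.23 and 8.94 FPKM at 0 g/kg, 5.56 and 4.24 at 0.4 g/kg, 3.15 and 6.34 at 0.8 g/kg and 2.64 and 2.55 at 8 g/kg, with an adjusted p of 0.0269 for its slope in voom. In these 3 genes both 0 g/kg libraries were above the other 6. Polq averaged under 5 FPKM over the libraries with valine. It thus passed the filter only through the 0 g/kg libraries, where it was high, and its direction was set in part by the filter. Rrm2, the small subunit of ribonucleotide reductase, had 119 and 137 FPKM at 0 g/kg, 142.5 and 125 at 0.4 g/kg, 104 and 111 at 0.8 g/kg and 90.5 and 99.2 at 8 g/kg, lowest at 8 g/kg (slope -0.16 ± 0.05), while the nucleotide synthesis list as a whole had 13 of 27 slopes below 0, near the 45.3% of all genes.

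In the opposite direction, Myc (chr15:61985341-61990361), the growth regulator downstream of Notch, was lower with less valine. It had 167 and 143 FPKM at 0 g/kg, 220.5 and 183 at 0.4 g/kg, 229.8 and 201 at 0.8 g/kg and 272 and 262 at 8 g/kg. The dose means were in order, both 0 g/kg libraries were below all others and both 8 g/kg libraries above, with T-ALL 2 higher than T-ALL 3 at each dose. The slope was 0.24 ± 0.05 (adjusted p = 0.232, voom 0.0349), and the mean at 0 g/kg was 0.582 times that at 8 g/kg. Heyl, another Notch target, was graded too, at 10.2 and 3.72 FPKM at 0 g/kg, 12.6 and 12.6 at 0.4 g/kg, 10.96 and 14.8 at 0.8 g/kg and 20.8 and 18.8 at 8 g/kg, with a slope of 0.48 ± 0.13.

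Of 17 tested Notch targets 12 had slopes above 0, against 54.7% of all genes, and 5 below, and only Myc and Heyl reached an unadjusted p under 0.05, against 4.18%. Hes1, the classical effector of Notch, had 119 and 113 FPKM at 0 g/kg, 62.6 and 46.9 at 0.4 g/kg, 69.3 and 89.1 at 0.8 g/kg and 95.3 and 58.2 at 8 g/kg. Both 0 g/kg libraries were above the others, by 0.76 ± 0.21, and the remaining doses had no order. Dtx1, a ubiquitin ligase induced by Notch, had 183 and 259.9 FPKM at 0 g/kg, 225 and 260.2 at 0.4 g/kg, 297 and 245 at 0.8 g/kg and 267.5 and 238.5 at 8 g/kg and a slope of 0.08 ± 0.06. Notch1 itself had 258 and 272 FPKM at 0 g/kg, 306 and 280.1 at 0.4 g/kg, 235 and 413 at 0.8 g/kg and 275 and 369 at 8 g/kg and a slope of 0.09 ± 0.07. The doses overlapped in both.

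Rbm3 (chrX:8138975-8145880), a cold-inducible RNA-binding protein, had 255 and 174 FPKM at 0 g/kg, 256 and 262 at 0.4 g/kg, 276 and 311.5 at 0.8 g/kg and 413.5 and 386 at 8 g/kg. Both 8 g/kg libraries were the highest, and the slope was 0.29 ± 0.05 (adjusted p = 0.196, voom 0.0142). B4galt1, a galactosyltransferase of the Golgi, had 17.1 and 15.1 FPKM at 0 g/kg, 20.3 and 19.1 at 0.4 g/kg, 24.1 and 24.4 at 0.8 g/kg and 32.7 and 34.1 at 8 g/kg, with each dose above the range of the dose below it and a slope of 0.34 ± 0.06 (adjusted p = 0.196, voom 0.0323). Gusb, a lysosomal glucuronidase, Axin1, a scaffold of Wnt signalling, and Fth1, the heavy chain of ferritin, were named after their values were seen. All 3 were graded in the same direction, with slopes of 0.19 ± 0.05, 0.22 ± 0.07 and 0.15 ± 0.05. Psenen, a subunit of the gamma-secretase that cleaves Notch, had 8.72 and 17.02 FPKM at 0 g/kg, 15.9 and 20.7 at 0.4 g/kg, 20.1 and 30.1 at 0.8 g/kg and 34.6 and 25.6 at 8 g/kg, with a slope of 0.42 ± 0.10.

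Cytosolic ribosomal protein genes differed by small amounts, nearly all in the same direction. Of 80 tested 77 had slopes above 0, against 54.7% of all genes, 18 with an unadjusted p under 0.05, against 4.18%, and 3 below 0, none of these with an unadjusted p under 0.05. The dose means of 31 were in order, all lower with less valine, against 6.51% of all genes. The median slope was 0.05 per rank. Rplp0, the large-subunit stalk protein, was graded, with 5355 and 4750 FPKM at 0 g/kg, 5324 and 5438 at 0.4 g/kg, 5569 and 5482 at 0.8 g/kg and 6305 and 6078 at 8 g/kg and a slope of 0.09 ± 0.03. Rps25, of the small subunit, was graded as well, with 1565 and 1119 FPKM at 0 g/kg, 1536 and 1501 at 0.4 g/kg, 1724 and 1572 at 0.8 g/kg and 1897 and 1748 at 8 g/kg. Rpl36, of the large subunit, had 2679 and 2220 FPKM at 0 g/kg, 2576 and 2777 at 0.4 g/kg, 2772 and 2650 at 0.8 g/kg and 3377 and 3757 at 8 g/kg and stood apart at 8 g/kg and not at 0 g/kg. This median depended on the scaling: after quantile normalization it was 0.00538, so a direction for this family is not firm.

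Mitochondrial ribosomal protein genes had 54 of 77 slopes above 0, against 54.7% of all genes, and 23 below. An unadjusted p under 0.05 was reached by 9 of those above 0, against 4.18% of all genes, and by 1 of those below, against 3.11%. Mrps34, of the small mitochondrial subunit, had 19.7 and 19.2 FPKM at 0 g/kg, 24.9 and 20.99 at 0.4 g/kg, 35.2 and 45.2 at 0.8 g/kg and 38.5 and 37.1 at 8 g/kg. The 0.8 and 8 g/kg libraries were all above those at 0 and 0.4 g/kg, and the slope was 0.36 ± 0.08. Proteasome genes had 28 of 37 slopes above 0, against 54.7% of all genes, 5 past the unadjusted level, against 4.18%, among them Psmb3, a core subunit, at 61.4 and 54.3 FPKM at 0 g/kg, 78.5 and 79.6 at 0.4 g/kg, 94.9 and 86.7 at 0.8 g/kg and 95.1 and 87.5 at 8 g/kg.

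All 61 replication-dependent histone genes were tested, and all 61 were lower at 0 g/kg than on average in the other diets, against 54.2% of all genes. Of these 52 had an unadjusted p under 0.05, against 5.5% of all genes. In 46 both 0 g/kg libraries lay below the other 6, against 6.33% of all genes, and 38 had the step shape, against 1.13%, while 0 were graded. The median difference at 0 g/kg was -0.58. Among the diets with valine the median slope was -0.08.

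Hist2h2aa1 (chr3:96245497-96246052), an H2A gene, fell to 332 and 296 FPKM at 0 g/kg, against 662 and 615 FPKM at 0.4 g/kg, 599.9 and 669 FPKM at 0.8 g/kg and 555 and 590.1 FPKM at 8 g/kg. The difference was -0.97 ± 0.10 log2 (adjusted p = 0.04996 in limma and 0.0202 in voom), and the slope over the other 3 diets was -0.08 ± 0.06. The call was lost without either 0.4 g/kg library, either 8 g/kg library or T-ALL 3 at 0 g/kg, and also with a pseudocount of 0.1, a lower or no filter on FPKM or centring on the median, with adjusted p of 0.0199 to 0.142 over all alternatives. With the T-ALL number as a replicate block the call was lost as well. Hist1h3g, an H3 gene, had 561 and 581.5 FPKM at 0 g/kg, 1177 and 813 at 0.4 g/kg, 1026 and 1054 at 0.8 g/kg and 1082 and 1134 at 8 g/kg, a difference of -0.87 ± 0.13. Hist1h3f, Hist2h2ac and Hist1h1c, named after their values were seen, differed by -0.75 ± 0.10, -0.72 ± 0.10 and -0.71 ± 0.14, and the voom adjusted p was 0.0127 for Hist1h3f and 0.0427 for Hist2h2ac.

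H2afx, whose product marks DNA breaks and whose mRNA can end in either a histone stem-loop or a poly(A) tail, had 204 and 214 FPKM at 0 g/kg, 411 and 396 at 0.4 g/kg, 365 and 398 at 0.8 g/kg and 341 and 358 at 8 g/kg and was named after its values were seen. Its difference at 0 g/kg was -0.85 ± 0.10 (adjusted p = 0.0581, voom 0.0179).

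Of 35 tested mitotic genes 34 were lower at 0 g/kg than on average in the other diets, against 54.2% of all genes, 11 with an unadjusted p under 0.05, against 5.5%. In 11 both 0 g/kg libraries were below the other 6, against 6.33% of all genes, and 4 had the step shape, against 1.13%. Of every 10000 reads the list took 33.2 and 43 at 0 g/kg, 52.7 and 49 at 0.4 g/kg, 43.4 and 55.4 at 0.8 g/kg and 38.4 and 43.6 at 8 g/kg, so that 0 and 8 g/kg overlapped. The median difference was -0.42, and it depended on the 0 g/kg libraries: it was -0.182 without T-ALL 2 and -0.644 without T-ALL 3 at that dose. Over the diets with valine the median slope was -0.14.

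Ccnb2 (chr9:70407689-70421554), a B-type cyclin, had 35.1 and 45.4 FPKM at 0 g/kg, 104 and 115 at 0.4 g/kg, 86.8 and 142 at 0.8 g/kg and 85.1 and 84.05 at 8 g/kg. Both 0 g/kg libraries were far below the rest, a difference of -1.33 ± 0.20 (adjusted p = 0.107), and the slope over the other diets was -0.18 ± 0.12. Cdc20, which activates the anaphase-promoting complex, had 35.3 and 52.4 FPKM at 0 g/kg, 106 and 109 at 0.4 g/kg, 85.8 and 129 at 0.8 g/kg and 77.6 and 111 at 8 g/kg, a difference of -1.23 ± 0.22. Bub3, of the spindle checkpoint, had 30.8 and 32.4 FPKM at 0 g/kg, 51.1 and 55.4 at 0.4 g/kg, 50.4 and 50.8 at 0.8 g/kg and 45.5 and 47.1 at 8 g/kg, a difference of -0.65 ± 0.14. Cenpf and Kpna2, a kinetochore protein and a nuclear import factor named after their values were seen, differed by -0.78 ± 0.21 and -0.83 ± 0.16. Top2a, the mitotic topoisomerase, did not share the step: it had 201 and 221 FPKM at 0 g/kg, 251 and 224 at 0.4 g/kg, 193 and 240 at 0.8 g/kg and 185 and 191.5 at 8 g/kg.

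The Ccnb2 promoter is shown because B-type cyclin promoters are known for spaced CCAAT boxes bound by NF-Y. It lies at chr9:70421505-70421804 on the minus strand (RefSeq, GRCm38.p6). The search for CCAAT on both strands gave 3 matches, in capitals, starting at -87, -54 and -21.
Ccnb2: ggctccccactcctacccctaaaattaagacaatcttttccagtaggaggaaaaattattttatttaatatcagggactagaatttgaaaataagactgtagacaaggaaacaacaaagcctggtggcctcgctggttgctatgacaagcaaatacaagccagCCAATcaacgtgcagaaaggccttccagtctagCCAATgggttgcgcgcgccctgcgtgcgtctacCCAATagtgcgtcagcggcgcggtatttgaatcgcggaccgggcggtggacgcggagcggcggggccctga
CCAAT is short and common: 37.4% of all promoters and 43.9% of those of tested genes held it. It was in 24 of 31 mitosis promoters (77.4%) and in 47 of 55 histone promoters (85.5%).

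Further genes were lower at 0 g/kg by a step. Rab29, a small GTPase of the Golgi and lysosomes, had 1.26 and 1.97 FPKM at 0 g/kg, 7.50 and 9.56 at 0.4 g/kg, 6.76 and 7.44 at 0.8 g/kg and 7.85 and 8.45 at 8 g/kg, a difference of -2.01 ± 0.35. Slc17a9, the vesicular nucleotide transporter, differed by -1.53 ± 0.37, and Snrnp40, a spliceosome component named after its values were seen, by -0.65 ± 0.13. Ly6d, a surface antigen used to mark B-lineage progenitors, was listed at 0 in both 0 g/kg libraries, against 1.37 to 31.5 FPKM in the other 6. Cdkn2a, the tumour suppressor locus of p16 and p19ARF, had 0 and 2.69 FPKM at 0 g/kg, 14.8 and 6.54 at 0.4 g/kg, 5.29 and 27.2 at 0.8 g/kg and 3.91 and 30.4 at 8 g/kg, with wide spread between the T-ALL numbers.

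**Figure D3:**
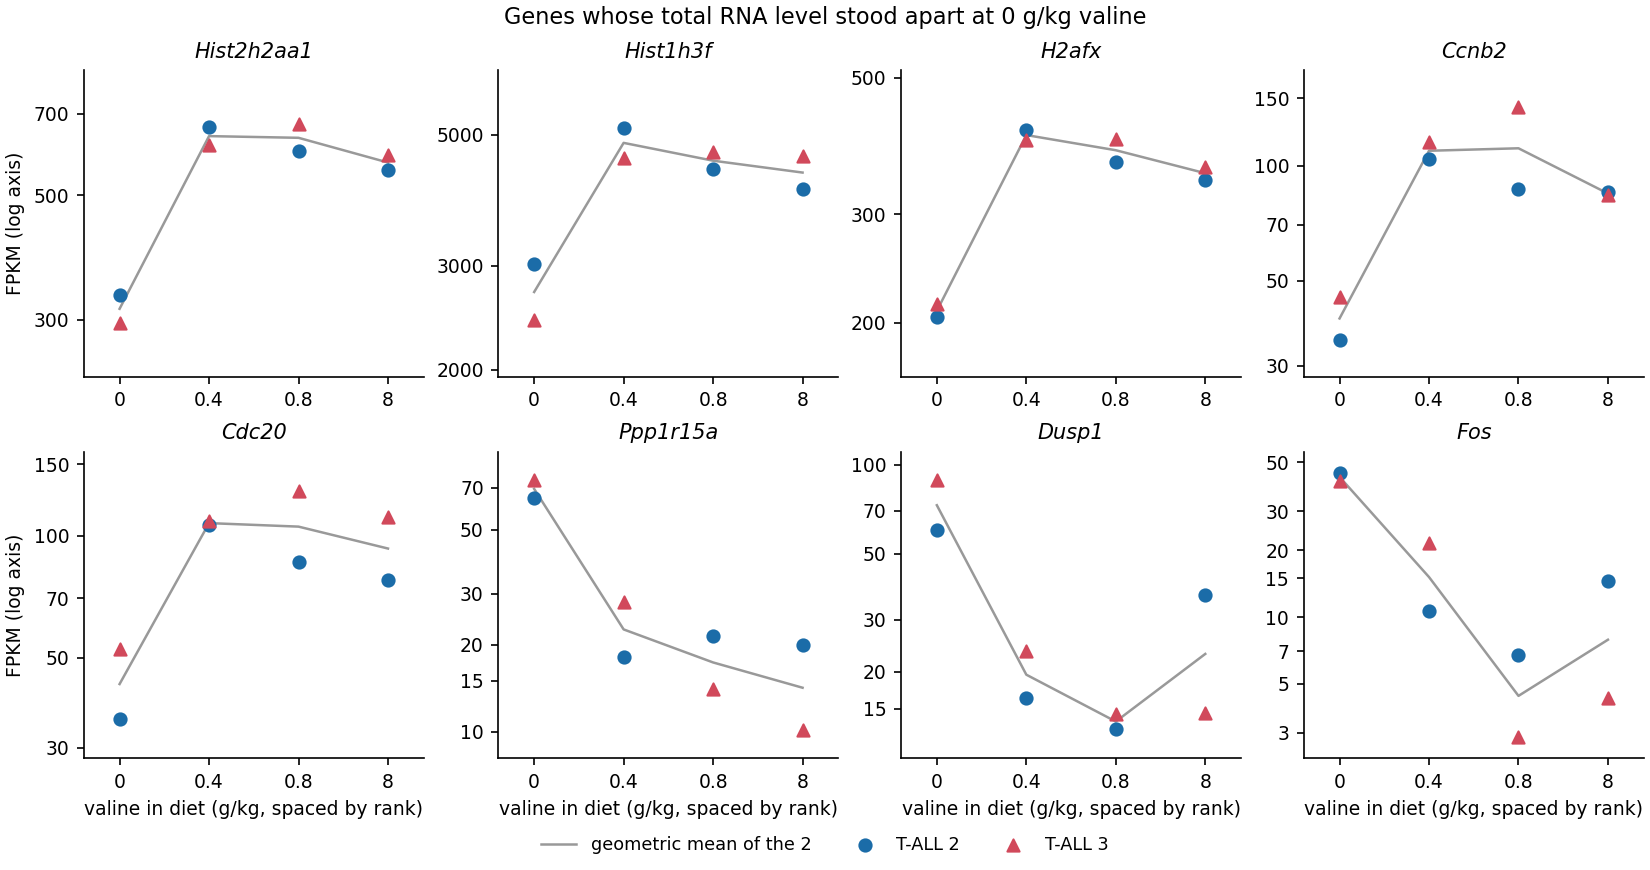
Total RNA level (FPKM, log axis) against the 4 diets for genes whose level stood apart at 0 g/kg. Circles are T-ALL 2, triangles T-ALL 3 and lines the geometric mean. Fos was not assigned the step shape. Hist2h2aa1 and Ccnb2 are low at 0 g/kg and higher on the other diets, and Ppp1r15a and Dusp1 are high at 0 g/kg.

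Immediate early genes, which cells switch on within minutes of a stimulus, had a slope below 0 in all 16 tested, against 45.3% of all genes, 9 with an unadjusted p under 0.05, against 3.11%, and 8 had both 0 g/kg libraries above the other 6, against 4.43% of all genes. The median difference at 0 g/kg was 0.90, the largest among the lists with at least 5 genes tested. Dusp1 (chr17:26505591-26508472), a phosphatase that switches off MAP kinases, had 60.1 and 88.6 FPKM at 0 g/kg, 16.3 and 23.4 at 0.4 g/kg, 12.8 and 14.5 at 0.8 g/kg and 36.3 and 14.6 at 8 g/kg. Its difference at 0 g/kg was 1.97 ± 0.33 (adjusted p = 0.127, voom 0.0174), with no order among the other diets.

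Fos, a subunit of the transcription factor AP-1, had 44.7 and 41.2 FPKM at 0 g/kg, 10.7 and 21.5 at 0.4 g/kg, 6.74 and 2.88 at 0.8 g/kg and 14.5 and 4.30 at 8 g/kg, a difference of 2.32 ± 0.48 (adjusted p = 0.182, voom 0.0264). Fos was not assigned the step shape. Its partner Jun was graded, with 84.3 and 80.9 FPKM at 0 g/kg, 45.8 and 83.6 at 0.4 g/kg, 50.1 and 46.7 at 0.8 g/kg and 42.2 and 30.1 at 8 g/kg and a slope of -0.40 ± 0.08 (adjusted p = 0.293, voom 0.0449). Dusp5 had 23.1 and 29.2 FPKM at 0 g/kg, 11.98 and 15.99 at 0.4 g/kg, 13.9 and 13.5 at 0.8 g/kg and 12.4 and 8.90 at 8 g/kg, a difference of 1.02 ± 0.22. Ier2, Egr1 and the NF-kappaB inhibitor gene Nfkbia, all named after their values were seen, differed by 0.97 ± 0.29, 1.001 ± 0.35 and 0.90 ± 0.26.

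Ppp1r15a (chr7:45522917-45526268), also called GADD34, which restores translation by dephosphorylating eIF2α, is on the ATF4 list but had the step shape. It had 64.3 and 74.7 FPKM at 0 g/kg, 18.2 and 28.1 at 0.4 g/kg, 21.5 and 14.1 at 0.8 g/kg and 19.9 and 10.1 at 8 g/kg. Both 0 g/kg libraries were above all others, with a mean 3.72 times that of the other 6, and the difference was 1.93 ± 0.30 (adjusted p = 0.107, voom 0.00669). Gem, a small GTPase induced by mitogens, differed by 1.32 ± 0.38. Gnat1, a transducin subunit best known from the retina, had 49.2 and 59.4 FPKM at 0 g/kg, 23.9 and 25.5 at 0.4 g/kg, 25.1 and 15.5 at 0.8 g/kg and 27.1 and 15.4 at 8 g/kg (voom adjusted p = 0.0427). Chil3 and Elane, genes of myeloid cells, had the largest named differences of this kind, taken up with the markers below.

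A step at 8 g/kg, with both 8 g/kg libraries outside the range of the other 6, was assigned to 10 genes. Of these 6 were higher at low valine (0.0798% of genes tested) and 4 lower (0.0532%). The shape did not require the 3 lower doses to be alike. Sars, the serine synthetase, had 69.3 to 93.4 FPKM on the 3 lower doses, against 64.7 and 57.3 FPKM at 8 g/kg. Bysl, a ribosome assembly factor, had 11.2 to 20.01 FPKM, against 6.58 and 6.72 FPKM. Zfyve1, which marks sites of autophagosome formation, ran the other way, with 5.19 to 8.65 FPKM on the lower doses, against 13.6 and 13.1 FPKM at 8 g/kg.

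**Figure D4:**
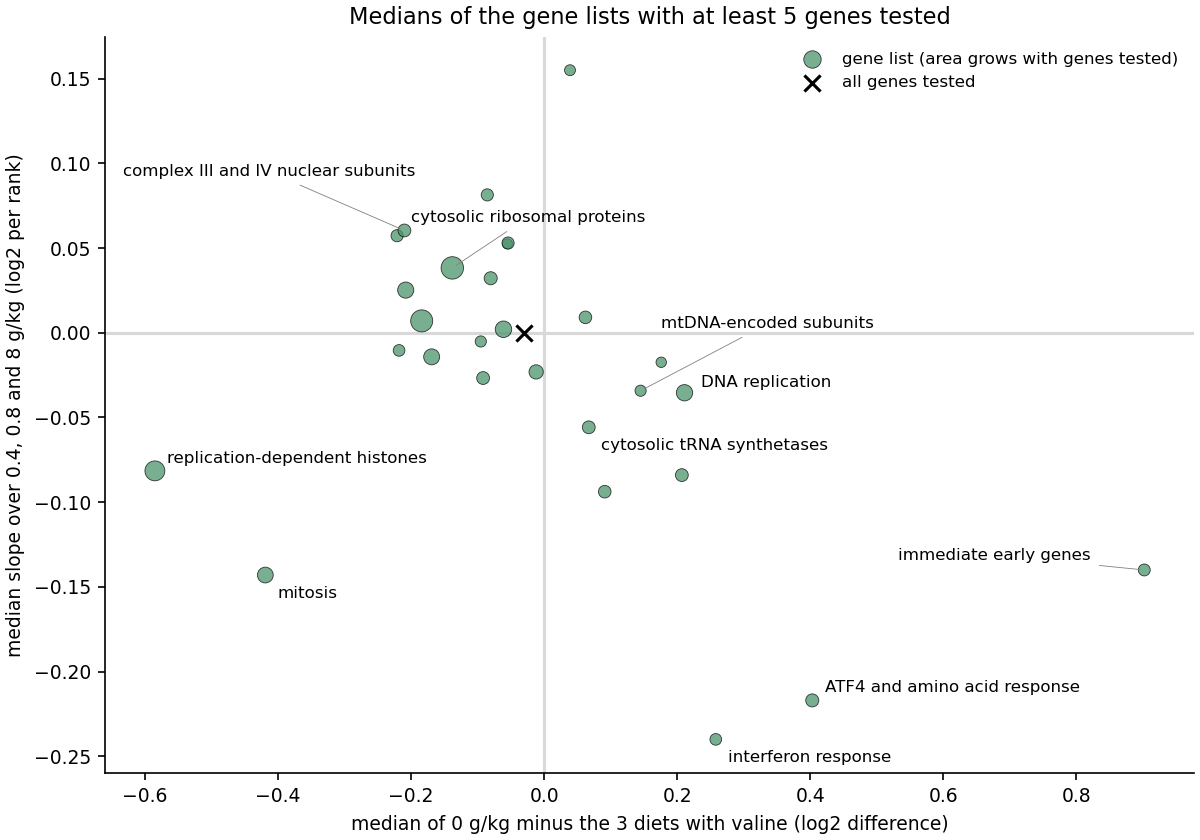
Median difference of 0 g/kg from the 3 diets with valine (horizontal, log2) against the median slope over those 3 diets (vertical, log2 per rank) for gene lists with at least 5 genes tested; area grows with the number tested and the cross is all genes. Histones and mitosis lie to the left at -0.58 and -0.42, immediate early genes to the right at 0.90, and the ATF4 list is right of centre and low at 0.40 and -0.22.

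Other lists had few members past the unadjusted level, and their shares of slopes stand against 54.7% above 0 and 45.3% below over all genes. Counts past that level stand against 4.18% of all genes above 0 and 3.11% below. Interferon response genes had 13 of 15 slopes below 0 but 1 past it, Isg15, at 24.5 and 28.7 FPKM at 0 g/kg, 24.3 and 27.1 at 0.4 g/kg, 12.5 and 20.1 at 0.8 g/kg and 17.4 and 17.1 at 8 g/kg. Cholesterol synthesis had 12 of 17 slopes above 0, with 1 past it, Srebf2, the regulator of that pathway. Glycolysis had 11 of 17 above 0, with Eno1 past it, and the tricarboxylic acid cycle 15 of 21, with 0 past it. Ribosome biogenesis had 28 of 39 above 0 and 2 past it. The p53 target and the autophagy and lysosome lists had 7 of 10 and 11 of 20 slopes below 0, with 1 each past it. Complex I assembly factors had 4 of 12 below 0, with 0 past it.

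Markers of other blood cells differed along with dose. Neutrophil markers took, of every 10000 reads, 4.50 and 2.12 at 0 g/kg, 0.323 and 0.710 at 0.4 g/kg, 0.273 and 0.137 at 0.8 g/kg and 0.165 and 0.130 at 8 g/kg, so that the 0 g/kg libraries were above all others. All 11 were in the table and 4 were tested (S100a8, S100a9, Ngp and Elane), each with a slope below 0 and both 0 g/kg libraries highest. S100a8 (chr3:90669071-90670034), a subunit of calprotectin, had 139.5 and 67.8 FPKM at 0 g/kg, 6.15 and 26.5 at 0.4 g/kg, 14.3 and 6.11 at 0.8 g/kg and 5.27 and 2.60 at 8 g/kg, from read counts of 45 and 14 at 0 g/kg, 3 and 9 at 0.4 g/kg, 6 and 1 at 0.8 g/kg and 3 and 1 at 8 g/kg. Its slope was -1.40 ± 0.25 (adjusted p = 0.196, voom 0.0269), and it was the sole gene to pass the trend test at equal depth. Ngp had read counts of 44 and 12 at 0 g/kg, 4 and 17 at 0.4 g/kg, 0 and 0 at 0.8 g/kg and 3 and 0 at 8 g/kg, and Elane was listed at 0 in 3 of the libraries with valine. Chil3, also made by neutrophils and macrophages, had 57.2 and 17.2 FPKM at 0 g/kg, 0.664 and 4.76 at 0.4 g/kg, 0.769 and 0 at 0.8 g/kg and 2.27 and 1.68 at 8 g/kg. In voom the 0 g/kg difference had an adjusted p of 0.0264 for Chil3 and 0.0334 for Elane, and the slope one of 0.0269 for Ngp. The filter takes the mean over all 8 libraries, so genes low with valine pass it through the 0 g/kg libraries, where they are high. Chil3 was under 5 FPKM in every library with valine, so its direction was set in part by the filter. How far this holds for Ngp and Elane was not tested.

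Erythroid markers went the other way, at 0.184 and 0.280 at 0 g/kg, 1.14 and 0.777 at 0.4 g/kg, 0.775 and 0.576 at 0.8 g/kg and 1.68 and 4.15 at 8 g/kg of every 10000 reads. Of 11 markers 10 were in the table and 2 were tested. Hbb-bs, a beta globin, had 9.84 and 7.68 FPKM at 0 g/kg, 78.1 and 53.6 at 0.4 g/kg, 64.1 and 33.9 at 0.8 g/kg and 124 and 353 at 8 g/kg, a difference at 0 g/kg of -3.23 ± 0.39 (adjusted p = 0.0604). The alpha globin gene Hba-a2 had 5.58 and 43.5 FPKM at 0 g/kg, 90.3 and 68.7 at 0.4 g/kg, 66.2 and 60.4 at 0.8 g/kg and 144 and 309 at 8 g/kg. Markers of macrophages, platelets and dendritic cells took at most 0.184, 0.0233 and 0.0142 of every 10000 reads, with 0 genes tested. B cell markers took 0.0134 to 0.511, in 2 genes of the table, Blk and Cd79b. Cd79b was at 0 in all 8 libraries. Natural killer cell markers took 3.99 to 6.81, nearly all from Gzma, whose groups overlapped, and stroma and endothelium markers 1.47 to 2.27, with overlapping groups as well. The part of these other cells in the slopes of the stress and immediate early genes was not tested.

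**Figure D5:**
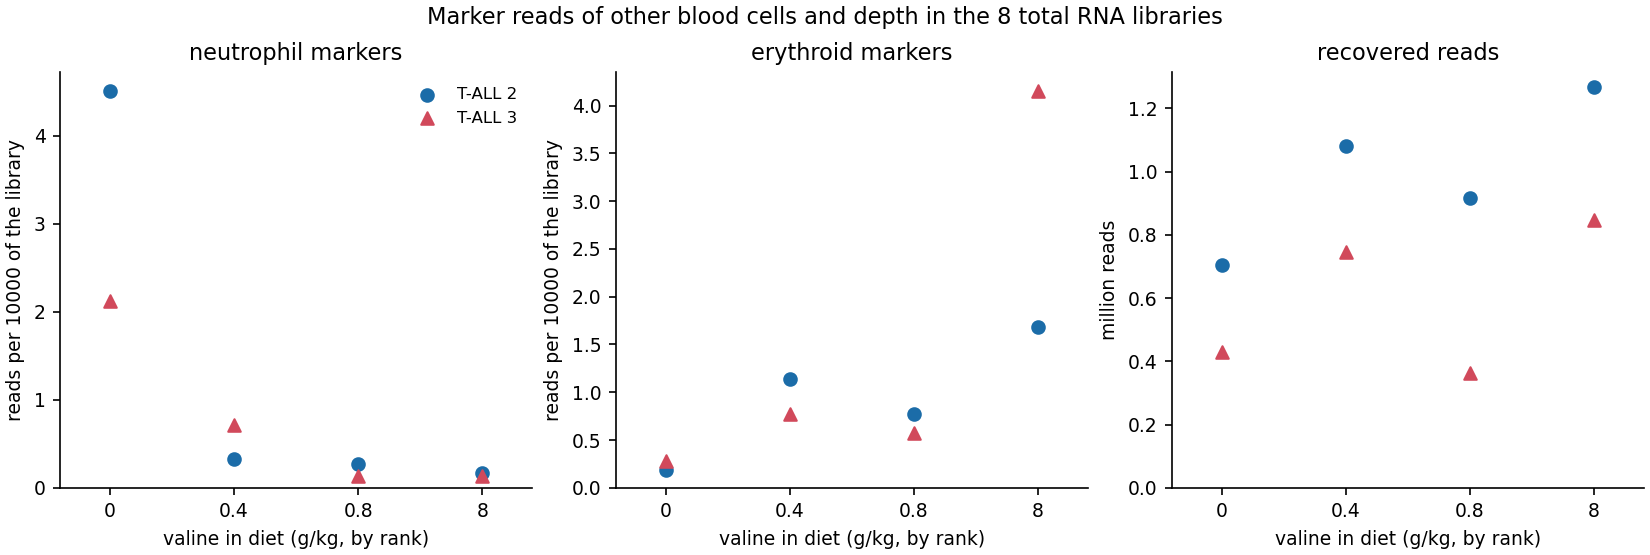
Reads of the neutrophil and erythroid marker lists per 10000 reads, and recovered reads, for each of the 8 libraries, by diet. Neutrophil markers are highest in the 0 g/kg libraries at 4.50 and 2.12, and erythroid markers highest at 8 g/kg at 1.68 and 4.15.

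Footprint libraries of the same diets and T-ALL numbers give another reading of the same genes, though a shallow one, with 41848 to 205545 reads. Whatever libraries of the same diet and T-ALL number share can enter both, so it is not an independent check. The RPF trend was fitted over 6980 genes, 0 of which passed (0%), with 406 at an unadjusted p under 0.05, and no other tool was run on RPF. Hspa1a had the lowest adjusted p, 0.0889, with a slope of -1.66 ± 0.23. Its RPF levels were 221 and 287 FPKM at 0 g/kg, 49.6 and 229.7 at 0.4 g/kg, 33.7 and 25.5 at 0.8 g/kg and 14.2 and 4.16 at 8 g/kg. Of the 67 graded genes 59 were tested in RPF, and 42 (71.2%) had an RPF slope of the same sign, against 57.1% of all 6559 genes tested in both. Of the 107 genes with a step at 0 g/kg 94 were tested, and 77 (81.9%) had the same sign, against 55.1% of all. Both sets were picked by their total RNA values, while the genes they are set against were not.

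Hist2h2aa1 footprints were at 909 and 1189 FPKM at 0 g/kg, 1506 and 3334 at 0.4 g/kg, 1351 and 2923 at 0.8 g/kg and 2878 and 2506 at 8 g/kg, lowest at 0 g/kg, with a difference of -1.14 ± 0.40. Ppp1r15a footprints were at 126.5 and 74.8 FPKM at 0 g/kg, 14.96 and 26.96 at 0.4 g/kg, 15.3 and 2.99 at 0.8 g/kg and 30.02 and 0 at 8 g/kg, resting on 32 and 19 reads at 0 g/kg and on 0 to 9 elsewhere. For Myc, RPF levels were 316 and 259 FPKM at 0 g/kg, 346 and 203 at 0.4 g/kg, 305 and 323 at 0.8 g/kg and 362 and 351 at 8 g/kg, which overlapped between doses, with a slope of 0.12 ± 0.10. Asns footprints rested on 0 to 11 reads per library, too few to place the doses in order.

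Slopes under T-ALL 2 and T-ALL 3 were compared in a fit with an interaction of T-ALL number and dose rank. No gene passed (lowest adjusted p in limma 0.404), with 435 at an unadjusted p under 0.05. With 4 libraries per T-ALL number, a difference between them of the size seen for Asns at 0.8 g/kg could not be separated from the spread.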

How the data were processed

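The deposited table holds FPKM for 12012 genes in 16 libraries, made by the authors, with replicates kept apart. STAR 2.5.0c, edgeR 3.14.0, Bowtie2 2.3.4, cutadapt 1.18 and the genome builds GRCm38 and mm10 appear, without a stated role, in the submitters' processing notes. How reads were counted, which genes were kept and how FPKM were computed is not given in the sources used here. Ensembl identifiers came with symbols except for 7 genes, and 11873 of 12005 symbols matched the RefSeq gene table (GRCm38.p6), from which positions and promoters were taken.

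The FPKM of a gene moved in steps that each stand for 1 read, so reads could be recovered. A whole number to within 0.02 reads resulted for 100% of the 149988 values that were not 0, and the largest distance was 8.05e-06. In a simulated table of 11952 genes 99.77% regained the counts that went in. A count of 0 was taken to allow up to 3 reads, or 0.000236% to 0.000823% of a total RNA library, which covers counting error only, since reads without molecular identifiers are not independent molecules.

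Log2(FPKM + 0.5) of the 8 total RNA libraries was fitted in R 4.3.3 by limma 3.58.1 (lmFit and eBayes with trend, two-sided, Benjamini-Hochberg over the 7515 genes tested, threshold 0.05). Differences are on that scale, which understates those of low genes. The trend on ranks left 6 residual degrees of freedom and the fit with diet as a factor 4. The trend and the 0 g/kg difference use the same libraries and are not independent of each other. A fold is a ratio of mean FPKM. The fits were tested on simulated data. No exact test of 2 against 2 libraries was run.

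The T-ALL numbers were not taken as pairing the libraries: the 6 correlations between diets of the same-numbered deviations ran from -0.073 to 0.28, and 3 were over 0.1. Alternatives were other pseudocounts, filters and scalings, equal depth, voom on recovered reads, a T-ALL block, other dose scales and leaving out each library. The leave-one-out values of patterns and all alternatives of list medians were added after seeing the data.

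The members, the 36 gene lists and the tests were chosen with earlier results of these data known. Lists cover amino acid response, supply and breakdown, stress, the cell cycle and histones, Notch targets, immediate early genes, respiration and central metabolism, ribosomes, proteasome, interferon, p53, autophagy, nucleotides and markers of 9 cell types. They were described by counts and medians and not tested.

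Genes were named by a rule: up to 10 per direction of the trend with the smallest p, up to 8 per direction of the graded and the 0 g/kg step shapes with the largest difference and 4 of the 8 g/kg step, up to 4 of each list, and a fixed set. Not every gene the rule takes is printed. Another 28 genes were named after their values were seen, among them Hspa8, Eif4ebp1, Lars, Tars, Cd8a, Top2a, mt-Co1, mt-Co2 and mt-Co3 beside those so marked in the text, as were the genes that spell out a count. The other total RNA genes were not analysed singly here.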

Additional observations from a re-analysis of the deposited data

How the results depend on the processing

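Depth limits what can be told apart: the shallowest library held 364685 reads, and genes of a few reads, such as Hspa1b at 8 g/kg or the neutrophil markers outside 0 g/kg, rest on few reads or on a bound. With 2 libraries a dose, calls hung on single libraries. The trend called 0 genes, against 1 at equal depth, 18 by voom on recovered reads and 0 to 5 when each library was left out, with 5 without T-ALL 3 at 0.8 g/kg and 3 without T-ALL 2 at 0.4 g/kg (S100a8, Hspa1l and Hist1h3g). The 0 g/kg difference called 1 gene, Hist2h2aa1, and 0 with a pseudocount of 0.1, a mean FPKM of at least 1, no filter, or centring on the library median. It called 6 at equal depth and 20 by voom. Leaving out each library gave 0 to 21 calls: 21, all lower, without T-ALL 2 at 0 g/kg, 2 without T-ALL 3 at 0 g/kg, 6 and 4 without T-ALL 2 and T-ALL 3 at 0.8 g/kg, 1 (Hbb-bs) without T-ALL 2 at 8 g/kg, and 0 without either library at 0.4 g/kg or T-ALL 3 at 8 g/kg. The slope over the diets with valine called 0 under all alternatives. With the T-ALL number as a replicate block the trend called 0, the 0 g/kg difference 0 and the slope over the diets with valine 0, with 74 graded and 108 step genes. List medians could not move under this block, because both T-ALL numbers are present at every dose. The 67 graded genes became 207, and the 107 step genes 269, at an unadjusted p under 0.05. They were 40 to 86 and 66 to 297 when each library was left out, with 40 without T-ALL 2 at 0.8 g/kg, 297 without T-ALL 2 at 0 g/kg, 68 without T-ALL 2 at 0.4 g/kg and 66 without T-ALL 3 at 8 g/kg.

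The median slope of cytosolic ribosomal proteins, 0.054, was 0.00538 after quantile normalization and 0.0332 by voom, and 0.0246 to 0.0792 when each library was left out. The mitosis median at 0 g/kg, -0.419, was -0.644 to -0.182 in the same way. The cause was not tested. Of 2086 values of 110 gene results under the alternatives, 2021 kept direction and side of the threshold, 39 passed it and 10, all of Hist2h2aa1, lost it. The other 16 turned sign, all in genes with flat or uncalled slopes. With the dose in g/kg these were Ddit3 (0.0424), Cd8a (0.0541), Ndufs1 (-0.00204) and mt-Co2 (0.00662), the last also on the log2 dose scale (0.00398). Voom turned Ndufs1 (-0.00242), quantile normalization mt-Co1 (-0.0417), and equal depth Lars (0.0139), Tars (-0.0096) and mt-Co2 (0.0123). When each library was left out, slopes ran from -0.0565 to 0.107 for Ndufs1, -0.022 to 0.0265 for Lars, -0.02 to 0.0822 for Tars, -0.0015 to 0.0361 for mt-Co1 and -0.0287 to 0.0223 for mt-Co2.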
